A study of Chlorocebus sabaeus with 12 samples.

Results

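Coregulators are the proteins through which a nuclear receptor changes transcription, and 9 of them were examined: the p160 coactivators NCOA1, NCOA2 and NCOA3, the inducible coactivator PPARGC1A, the acetyltransferases EP300 and CREBBP, the arginine methyltransferases PRMT1 and CARM1, and the corepressor NCOR1. Every probe carrying one of these 9 gene names was taken, which gave 17 probes of 8 genes among 30982 gene names on the array. CARM1 had no probe under that name and was not analysed here. The cells were COS-1, an African green monkey kidney line that expresses the SV40 large T antigen, and they had been transfected for 24 h with human FXR (NR1H4), the bile acid receptor. All 12 arrays carried a mutant receptor, either S154A, with alanine in place of a serine that can be phosphorylated, or S154D, with aspartate there, and each receptor was followed by 24 h of 0.1% DMSO or of chenodeoxycholic acid (CDCA), a bile acid that binds FXR, at the 50 mM given in the labels. The resulting 4 groups (S154A with DMSO, S154A with CDCA, S154D with DMSO, S154D with CDCA) held 3 arrays each. Wild-type FXR and untransfected cells were not analysed here, and no label says that the 3 arrays of a group came from separate cultures, so the p-values measure the spread between these arrays, which may be technical.

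A ligand-bound receptor such as FXR presents a short surface to the LXXLL motifs of the p160 proteins, which in turn bring in EP300 and CREBBP to acetylate histones and PRMT1 or CARM1 to methylate them. PPARGC1A is a coactivator whose own transcription is switched on by fasting and by cAMP in liver. NCOR1 works in the other direction, since it holds histone deacetylases at receptors without an activating ligand. An array reads the mRNA of each of these proteins, not its binding to FXR.

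The sequences below are the probes on which the results turn, read from the array files, 60 bases each and written 5′ to 3′. The first is the only probe of NCOA1, on chromosome 2 (chr2:24892556-24892615, plus strand, human build hg17 as the files give it). The second is the upstream probe of EP300 (chr22:39877754-39877813, plus strand), which was printed at 10 places on each array. The third is the only probe of PRMT1; its ends lie on chr19:54880060-54881174, plus strand, a genomic span of 1115 bases, so the probe crosses at least 1 exon junction. The last pair are probes of NCOR1 on the minus strand (chr17:16009102-16009161 and chr17:16009060-16009119). They overlap by 18 bases, and the capital marks the base at which they differ there, C54T, counted from 1 at the 5′ end of the first of them (position 12 of the second). Exon and UTR annotation of build hg17 was not used here.
NCOA1 A_23_P39602: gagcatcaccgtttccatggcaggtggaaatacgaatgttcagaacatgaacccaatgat
EP300 A_24_P7887: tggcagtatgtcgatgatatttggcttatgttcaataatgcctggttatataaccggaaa
PRMT1 A_23_P39088: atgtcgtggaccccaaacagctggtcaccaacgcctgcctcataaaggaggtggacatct
NCOR1 A_24_P204214: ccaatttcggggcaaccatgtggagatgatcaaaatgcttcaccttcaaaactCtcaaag
NCOR1 A_24_P237661: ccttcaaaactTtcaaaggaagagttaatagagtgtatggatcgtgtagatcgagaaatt

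All 9 genes are listed in the RefSeq annotation of the green monkey, but the probes are human, so a low signal can be a low transcript or a poor match to the monkey sequence; the 2 cannot be told apart here, and no probe's level was set against another's. Values are log2 intensities relative to the 75th percentile of the same array, so that 0 is the level below which 75% of the spots lie. The scanner calls a spot well above background when its signal clears the local background. Of the 41000 probes on the array, 65.6% passed this call on every array of 1 group or more and were tested (26898), and 57.0% were so on all 12 arrays. Of the 17 coregulator probes, 15 probes of all 8 genes were tested, and 14 probes of 7 genes were well above background on all 12 arrays. From 61.6% to 79.8% of spots per array passed. The transfected receptor itself, NR1H4, stood 7.73 above the 75th percentile with S154A in DMSO and differed by no more than 0.20 in any comparison, and the CDCA target OSTalpha, a bile acid transporter subunit, rose by 2.11 ± 0.26 (SE) and 2.56 ± 0.18 at its 2 probes with S154A. With S154D the same probes gave 0.28 ± 0.26 and 0.20 ± 0.18, neither called. Among marker genes of the labelled tissue, 4 of 6 kidney genes (AQP1, CDH16, PAX8 and UMOD) were well above background on all 12 arrays, as were the 4 epithelial genes with a probe, 5 of 6 fibroblast or mesenchymal genes, 2 of 4 hepatocyte genes, 2 of 4 leukocyte genes (CD14 and CD3E) and 0 of 3 endothelial genes. PTPRC, the pan-leukocyte marker, was well above background on no array.

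**Figure D1:**
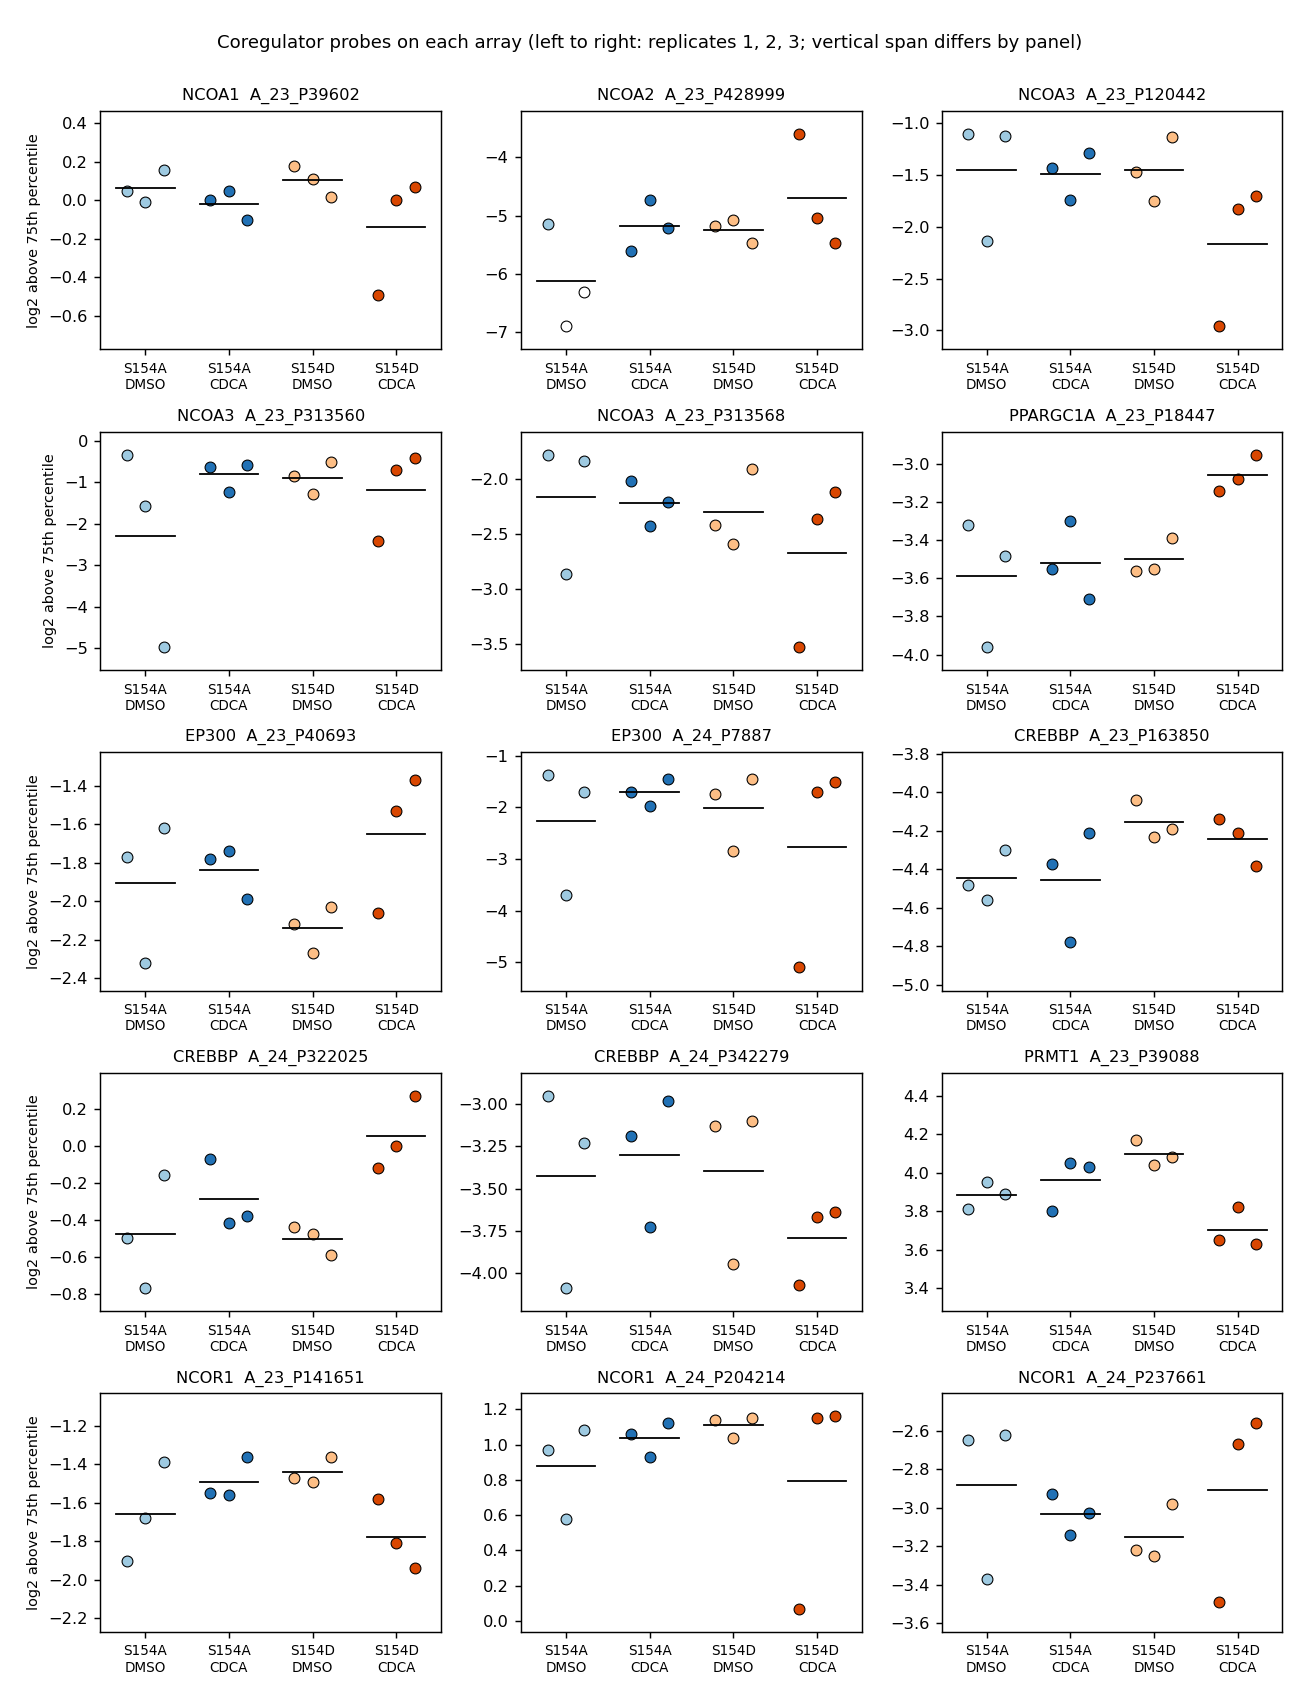
Each panel shows 1 tested coregulator probe on the 12 arrays, as log2 above the array's 75th percentile (vertical axis, a different span in each panel), by group (horizontal axis); points are replicates 1, 2 and 3 from left to right, open points were not well above background, and lines are group means. The PRMT1 values with S154D in CDCA, 3.63 to 3.82, lie below the 3 with S154D in DMSO, 4.04 to 4.17, and the EP300 probe A_24_P7887 reads -5.10 on S154D with CDCA, replicate 1.

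PRMT1, with S154D, was the only coregulator whose probe passed the test in any of the 5 comparisons; in RNA pooled from a whole culture, fewer cells expressing a gene and less RNA per cell cannot be told apart. For CDCA with S154A the count was 0 of 15 by limma at a Benjamini-Hochberg adjusted p under 0.05 (background 0.119% of all tested probes), and 0 of 15 also had an unadjusted p under 0.05 (background 5.58%). With S154D, 1 of 15 probes was lower in CDCA, that of PRMT1, which is 6.67% of the coregulator probes against 11.6% of all tested probes called in either direction and 4.52% called lower. At an unadjusted p under 0.05 the S154D count was 5 of 15, or 33.3%, against 30.9% of all tested probes, a share near that of the whole array. S154D and S154A differed at 0 of 15 probes in DMSO (background 0%; 0 at an unadjusted p under 0.05, background 4.38%) and at 0 of 15 in CDCA (background 0.346%; 2 at an unadjusted p under 0.05, background 23.5%). The difference between the 2 CDCA responses was called at 0 of 15 probes (background 0.219%; 2 at an unadjusted p under 0.05, background 22.4%). These comparisons share arrays, so they are not independent of each other. The median change of the 15 probes was 0.07 with S154A and -0.29 with S154D, where the medians over all tested probes were -0.04 and -0.02. Both coregulator medians rested on single arrays: without S154D with CDCA, replicate 1, the latter was 0.04, and without S154A with DMSO, replicate 2, the former was -0.12. With the slide as a block the S154D median was -0.05. Several genes have more than 1 probe among the 15. With only the brightest probe of each gene name (8 probes) the S154D median was 0.10 and the S154A median 0.12. The median standard error of a coregulator probe was 0.26, which limits what these 3 arrays a group could show.

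**Figure D2:**
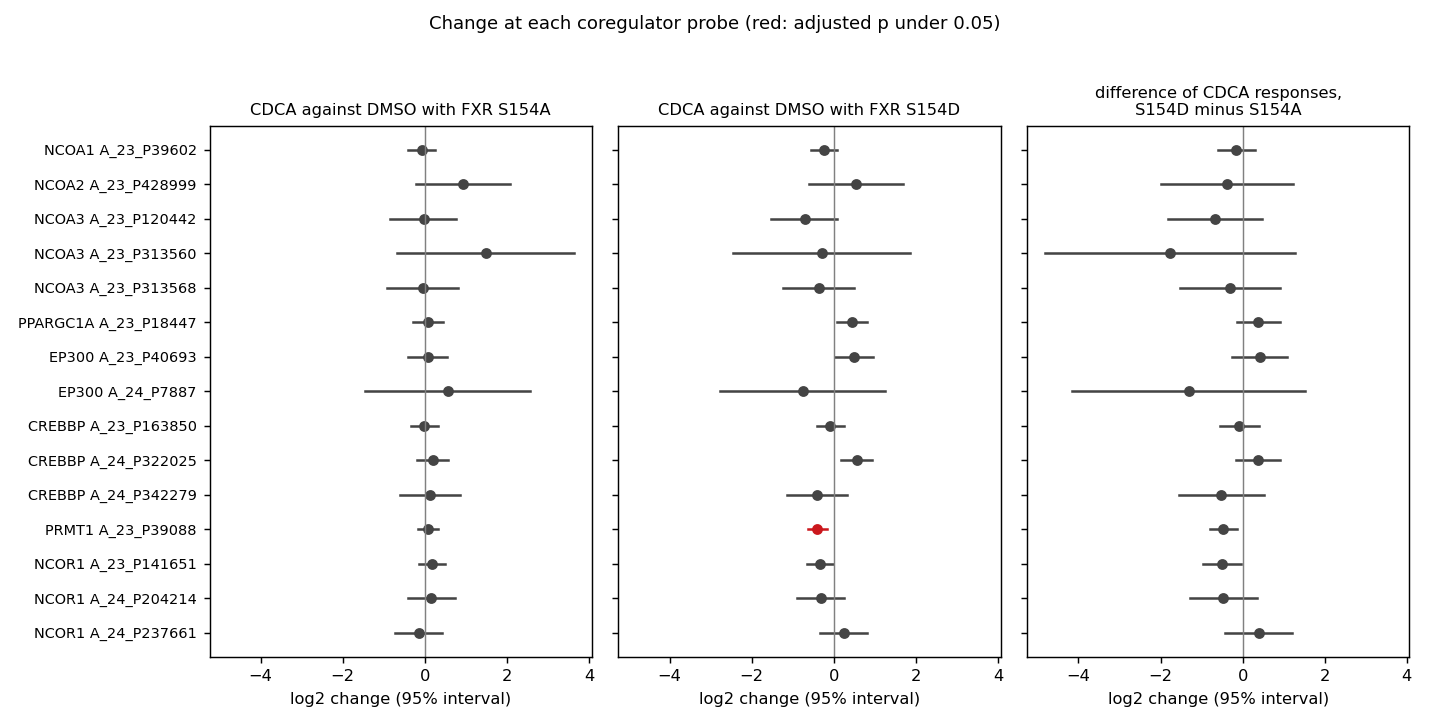
Log2 change at each tested coregulator probe (vertical axis) with its 95% interval from limma (horizontal axis), for CDCA against DMSO with each receptor and for the difference of the 2 responses; red marks an adjusted p under 0.05. PRMT1 with S154D, at -0.40 with an interval of -0.63 to -0.16, is the red point; the widest intervals belong to NCOA3 A_23_P313560 and EP300 A_24_P7887.

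NCOA1 (SRC-1), the founding p160 protein, was the steadiest of its family. Its probe read 0.05, -0.01 and 0.16 with S154A in DMSO, 0.00, 0.05 and -0.10 with S154A in CDCA, and 0.18, 0.11 and 0.02 with S154D in DMSO. With S154D in CDCA it read -0.49, 0.00 and 0.07. Replicate 1 of that group was thus the lowest of the 12 arrays, and the other 11 lay between -0.10 and 0.18. The CDCA change was -0.08 ± 0.14 (SE; 95% interval -0.40 to 0.24) with S154A and -0.24 ± 0.14 (-0.56 to 0.08) with S154D, and without the low array the latter was -0.07.

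NCOA2 (GRIP1, also called SRC-2) had the only tested coregulator probe that was not well above background on every array. It passed on 10 of 12 arrays, and on 1 of 3 with S154A in DMSO. It read -5.14, -6.90 and -6.31 in that group, -5.60, -4.74 and -5.22 with S154A in CDCA, -5.18, -5.07 and -5.47 with S154D in DMSO, and -3.60, -5.04 and -5.47 with S154D in CDCA. The groups overlapped, and the highest value came from S154D with CDCA, replicate 1, the array on which NCOA1 was lowest. None of its changes was called: 0.93 ± 0.51 (limma adjusted p = 0.933) for CDCA with S154A, from 0.54 without S154A with DMSO, replicate 2, to 1.42 without replicate 1 of that group, and 0.54 ± 0.51 with S154D, which became -0.02 without S154D with CDCA, replicate 1.

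NCOA3 (AIB1 or SRC-3), the p160 member amplified in some breast tumours, had 3 probes within 773 bases of each other (chr20:45717037-45717869 in all, plus strand). Probe A_23_P313560 read -0.33, -1.57 and -4.97 with S154A in DMSO, where replicate 3 held an intensity of 52 against 369 to 1675 on the other 11 arrays. The other 2 probes did not share that value: on the same array A_23_P120442 read -1.13 and A_23_P313568 read -1.84, each the 2nd highest of its own 12 values. Probe A_23_P313560 has 1 spot per array and the scanner software set no outlier flag on it. The apparent CDCA change of A_23_P313560 with S154A was 1.48 ± 0.97 (limma adjusted p = 0.944) and was 0.14 without that array. The CDCA changes at A_23_P120442 and A_23_P313568 were -0.03 ± 0.36 and -0.05 ± 0.39 with S154A, and -0.71 ± 0.36 (adjusted p = 0.211) and -0.37 ± 0.39 with S154D, none of them called. Both were lowest on S154D with CDCA, replicate 1 (-2.96 and -3.53), and without it the S154D changes were -0.32 and 0.06. Over all 12 arrays, correction for base composition gave S154D changes of -1.08 and -0.73 (limma adjusted p = 0.152 and 0.294).

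PPARGC1A (PGC-1α), the coactivator of gluconeogenic and mitochondrial genes, was read by 1 tested probe, A_23_P18447 (chr4:23470206-23470265, minus strand). It read -3.32, -3.96 and -3.48 with S154A in DMSO, -3.55, -3.30 and -3.71 with S154A in CDCA, -3.56, -3.55 and -3.39 with S154D in DMSO, and -3.14, -3.08 and -2.95 with S154D in CDCA. All 3 arrays of the last group lay above the other 9. Of all tested probes, 20% were higher in CDCA than in DMSO with S154D without overlap. The share above all 9 other arrays is not reported here. The difference was 0.44 ± 0.17 for CDCA with S154D (limma adjusted p = 0.101) and 0.46 ± 0.17 for S154D against S154A in CDCA (adjusted p = 0.143), neither of them called. It was called under 2 other scalings of the arrays, 0.55 with median scaling (adjusted p = 0.0422) and 0.55 with quantile normalisation (adjusted p = 0.0301), and it was 0.08 after correction for the base composition of the probes. The difference between the receptors' CDCA responses was 0.38 ± 0.24 (adjusted p = 0.367). The other PPARGC1A probe, A_24_P303052, was well above background on 0 of 12 arrays and was not tested.

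EP300 (p300), an acetyltransferase of histones H3 and H4, gave the widest swings of the acetyltransferases. Its upstream probe A_24_P7887 read -1.38, -3.70 and -1.71 with S154A in DMSO, -1.71, -1.97 and -1.45 with S154A in CDCA, -1.75, -2.85 and -1.45 with S154D in DMSO, and -5.10, -1.70 and -1.51 with S154D in CDCA. So 3 arrays of 3 different groups were low, at -2.85 or below, and the other 9 lay between -1.97 and -1.38. The 10 spots of this probe gave nearly the same reading on each array, with an SD of 0.04 to 0.16 (2 spots were left out as outliers), and they read intensities of 52 to 249 on the 3 low arrays against 357 to 911 on the other 9. The range of 3.72 was the 2nd largest among the 230 tested probes printed 10 times. Because the low arrays fell in different groups, the CDCA changes carried large errors, 0.56 ± 0.90 with S154A and -0.76 ± 0.90 with S154D (limma adjusted p = 0.608), and without the 3 low arrays they were -0.16 and -0.01.

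The other EP300 probe, A_23_P40693, lies 21779 bases downstream (chr22:39899533-39899592) and varied less, over a range of 0.95. It read -1.77, -2.32 and -1.62 with S154A in DMSO, -1.78, -1.74 and -1.99 with S154A in CDCA, -2.12, -2.27 and -2.03 with S154D in DMSO, and -2.06, -1.53 and -1.37 with S154D in CDCA. Each of the 3 arrays low at the upstream probe held the lowest value of its group here too, at -2.32, -2.27 and -2.06, where the other 9 lay between -2.12 and -1.37. The S154D groups overlapped through replicate 1 of the CDCA group, and the change was 0.49 ± 0.21 (limma adjusted p = 0.149). Without that array it was 0.69 and called (adjusted p = 0.0483), and without the 3 arrays low at the upstream probe it was 0.62 (adjusted p = 0.0374). After correction for base composition over all 12 arrays it was 0.12 (adjusted p = 0.758).

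The 3 arrays were picked by A_24_P7887, so that probe is left out of the next count. Of all tested probes, 1613 (6.0%) were lower on all 3 than on each of the other 9, and so were 3 of the other 14 coregulator probes (NCOA3 A_23_P313568, CREBBP A_24_P342279 and NCOR1 A_24_P237661). S154D with CDCA, replicate 1, held the lowest value of 6 of the 15 coregulator probes (A_24_P7887 among them), where it held that of 11% of all tested probes, and S154A with DMSO, replicate 2, held 5 of 15 against 6.16%. For 1355 gene names with probes at least 10000 bases apart, the difference between the most upstream and the most downstream probe was taken, centred on its median over the arrays. Its median over these names was lowest on S154D with CDCA, replicate 1, at -0.23, then -0.15 on S154A with DMSO, replicate 2, and -0.14 on S154D with CDCA, replicate 3. On S154A with CDCA, replicate 2, which was not low at A_24_P7887, it was -0.13. It was -0.08 on S154D with DMSO, replicate 2, which was low there, and reached 0.20 on replicate 3 of that group. All 3 arrays of S154D with CDCA were below 0. The part of this measure in the coregulator values was not tested.

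**Figure D3:**
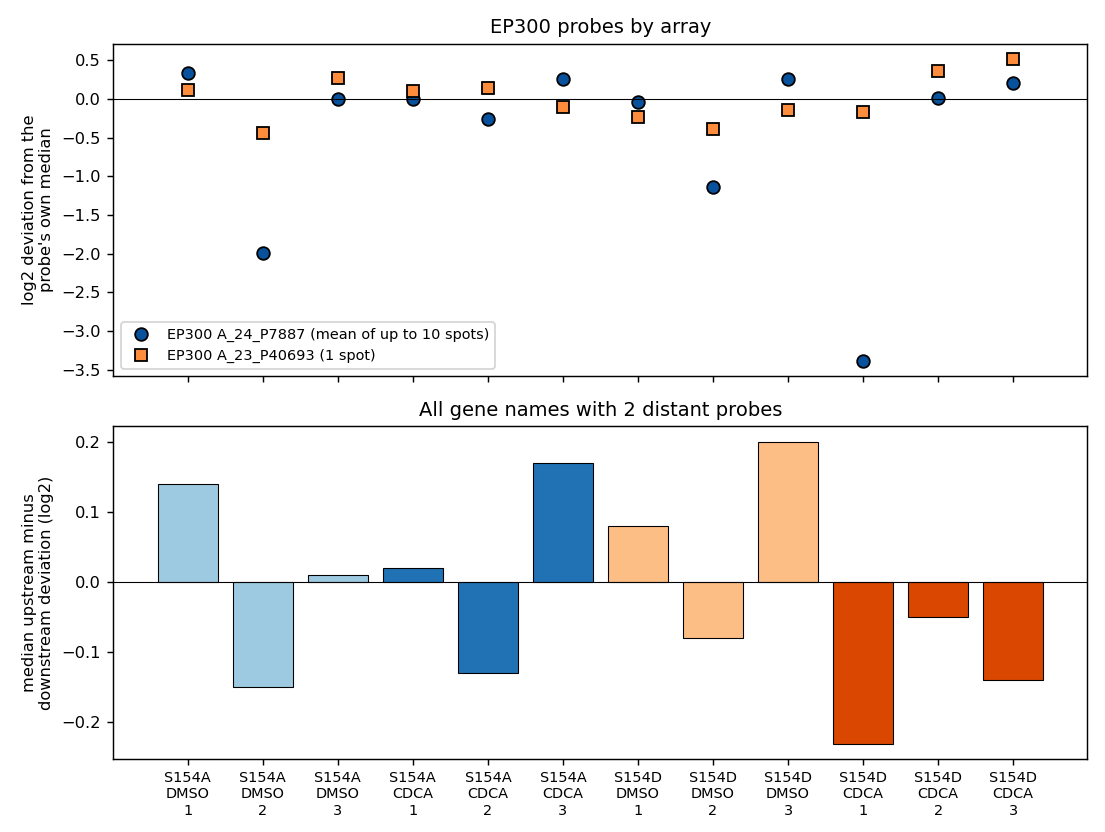
Top: both EP300 probes on the 12 arrays, as log2 deviation from each probe's own median (circles A_24_P7887, squares A_23_P40693). Bottom: median difference between the most upstream and the most downstream probe of 1355 gene names, log2, centred for each name, from -0.23 on S154D with CDCA, replicate 1, to 0.20 on S154D with DMSO, replicate 3.

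CREBBP (CBP), the paralogue of EP300, had 3 tested probes that did not move together. Probe A_24_P322025 (chr16:3716933-3716992, minus strand) read -0.50, -0.77 and -0.16 with S154A in DMSO, -0.07, -0.42 and -0.38 with S154A in CDCA, -0.44, -0.48 and -0.59 with S154D in DMSO, and -0.12, 0.00 and 0.27 with S154D in CDCA. The S154D groups did not overlap, and the change was 0.56 ± 0.17 (limma adjusted p = 0.0592), just outside the threshold. With S154A the change was 0.19 ± 0.17, and the difference of the responses was 0.37 ± 0.24 (adjusted p = 0.387). The S154D change was called when only probes well above background on all 12 arrays were tested (0.56, adjusted p = 0.0463) and was 0.19 after correction for base composition. Probe A_23_P163850, 654 bases upstream and printed 10 times, gave -0.09 ± 0.15 with S154D, and probe A_24_P342279, 66656 bases upstream, gave -0.40 ± 0.33, neither called. At A_23_P163850 all 3 arrays of S154D in DMSO (-4.04, -4.23 and -4.19) lay above those of S154A in DMSO (-4.48, -4.56 and -4.30), a difference of 0.30 ± 0.15 that was not called. In that comparison 11.4% of all tested probes had groups that did not overlap.

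PRMT1, the main enzyme of asymmetric arginine dimethylation and the source of the histone H4 arginine mark at activated promoters, was the only called coregulator. Its probe read 3.81, 3.95 and 3.89 with S154A in DMSO, 3.80, 4.05 and 4.03 with S154A in CDCA, 4.17, 4.04 and 4.08 with S154D in DMSO, and 3.65, 3.82 and 3.63 with S154D in CDCA. The S154D groups did not overlap, and the S154A groups did. PRMT1 fell by 0.40 on the log2 scale with S154D (SE 0.10, 95% interval -0.63 to -0.16, limma adjusted p = 0.0401), and with S154A its change was 0.07 ± 0.10. The difference between the 2 responses was -0.47 ± 0.15 (adjusted p = 0.119) and was not called, so the response of PRMT1 was not shown to differ between the receptors. The starting levels with S154D lay 0.21 ± 0.10 above those with S154A in DMSO, with no overlap between the arrays but not called, and the difference in CDCA was -0.26 ± 0.10 (adjusted p = 0.178).

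The PRMT1 call rested on the choice of arrays and processing. It was made in 7 of 29 alternatives, over which the change ran from -0.46 to -0.06 and the adjusted p from 0.0315 to 0.903. With 1 array left out it was made in 3 of 12 cases, those without an array of S154A in CDCA, and was lost without any of the other 9, while the change itself stayed between -0.46 and -0.36 (adjusted p from 0.0419 to 0.137). With the slide as a block the change was -0.34 (adjusted p = 0.23), and on slide 3, the only slide with both S154D groups, it was -0.26 from 1 array each. Base composition moved with this result. Of the bases of the PRMT1 probe 55% are G or C, the highest share among the 15, and over all tested probes the S154D change fell with that share (Spearman rho -0.56 across probes, which are not independent; -0.10 with S154A). Among the 3130 probes with 55% up to 60% G and C the median change was -0.30, and 14.7% were called lower. After correction for base composition the PRMT1 change was -0.11 ± 0.12 (adjusted p = 0.644), and 0 of the 26898 probes were called with S154D, where 5447 had an unadjusted p under 0.05. The 3 probes whose profile over the 12 arrays was most like that of PRMT1 were taken by the root mean square difference after centring. They were those of RPS2, a ribosomal protein (0.052 log2, 70.0% G and C), CALM3, a calmodulin gene (0.055, 55.0%), and ANKRD9 (0.06, 71.7%). These probes were picked on the same 12 arrays, so their likeness to PRMT1 is not a separate result.

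**Figure D4:**
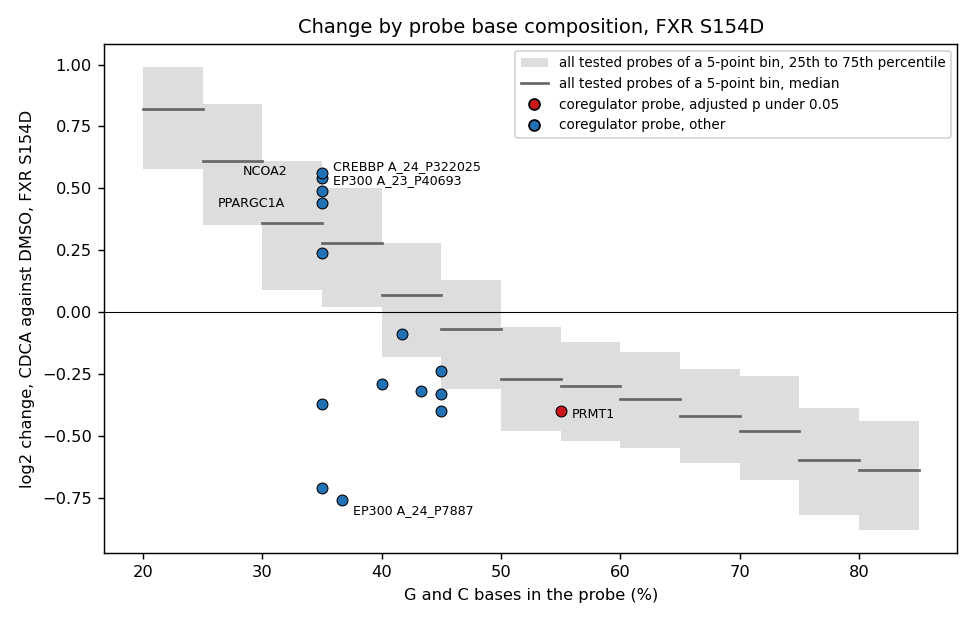
Log2 change for CDCA against DMSO with S154D (vertical axis) by the share of G and C in the probe (horizontal axis, percent): grey lines and boxes give the median and the 25th to 75th percentile of all tested probes in bins of 5 points, and points are the 15 coregulator probes. PRMT1 (red), at 55% and -0.40, lies inside the box of its bin, whose median is -0.30; the EP300 probe A_24_P7887, at -0.76, lies below the box of its own.

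NCOR1, the corepressor that anchors HDAC3, had 3 tested probes. Probe A_23_P141651 at its downstream end (chr17:15883549-15883608) read -1.90, -1.68 and -1.39 with S154A in DMSO, -1.55, -1.56 and -1.36 with S154A in CDCA, -1.47, -1.49 and -1.36 with S154D in DMSO, and -1.58, -1.81 and -1.94 with S154D in CDCA. The last group lay below S154D in DMSO on all 3 arrays, by -0.33 ± 0.14 (limma adjusted p = 0.147), and below S154A in CDCA on all 3, by -0.29 ± 0.14 (adjusted p = 0.256). The difference of the responses was -0.50 ± 0.20 (adjusted p = 0.185), and none of these was called. Correction for base composition left the S154D change at -0.30 (limma adjusted p = 0.272). The corrected difference of the responses was -0.51 (limma adjusted p = 0.267). In all, 2 of 15 coregulator probes were lower (PRMT1 and this one) and 2 higher (PPARGC1A and CREBBP A_24_P322025) with no overlap in CDCA with S154D, where 14.7% and 20% of all tested probes were. For S154D against S154A in CDCA these shares are not reported here. In that comparison 23.5% of all tested probes had an unadjusted p under 0.05.

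The overlapping pair of NCOR1 probes shown above were both lowest on S154D with CDCA, replicate 1, next lowest on S154A with DMSO, replicate 2, and highest on S154D with CDCA, replicate 3. A_24_P204214 lay between 0.93 and 1.16 on 10 arrays, at 0.58 on S154A with DMSO, replicate 2, and at 0.07 on S154D with CDCA, replicate 1, 2 of the 3 arrays low at EP300. A_24_P237661 ran from -3.49 on the latter array to -2.56 on S154D with CDCA, replicate 3. The S154D changes were -0.32 ± 0.26 and 0.24 ± 0.26, neither called, and without replicate 1 they were 0.04 and 0.54. The 4th NCOR1 probe, A_24_P911017, was well above background on 2 of 12 arrays (S154A with DMSO, replicate 1, and S154D with CDCA, replicate 1) and was not tested.

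The wider coregulator machinery was read through a list of 85 other genes, of which 84 had a tested probe (146 probes). None of the 146 was called for CDCA with S154A, for either comparison between the receptors or for the difference of the responses, where 5 (S154A), 5 (in DMSO), 34 (in CDCA) and 40 (difference) had an unadjusted p under 0.05. These are 3.42%, 3.42%, 23.3% and 27.4% of the list, against 5.58%, 4.38%, 23.5% and 22.4% of all tested probes. With S154D, 7 probes of 6 genes rose and 11 probes of 11 genes fell, 12.3% of the list against 11.6% of all tested probes, and the median change was -0.08. At an unadjusted p under 0.05 the S154D count was 59 of 146, or 40.4%, against 30.9% of all tested probes. Slide 2 held 2 of the 3 arrays of S154D in CDCA and none of S154D in DMSO, and with the slide as a block 0 of the 26898 probes, and so none of this list, were called with S154D (6225 had an unadjusted p under 0.05). Of the 17 Mediator probes, which read the complex that joins activators to RNA polymerase II, 4 rose and 1 fell. That is 29.4%, against 11.6% of all tested probes. MED17 (listed as CRSP6) rose by 0.75 ± 0.13 and MED21 (SURB7) by 0.55 ± 0.10. MED24 (THRAP4), a subunit that serves nuclear receptors, fell by 0.77 (SE 0.12). The other MED17 probe gave 0.36. Of the 13 deacetylase probes 2 rose and 2 fell; both that rose belonged to HDAC4, a class IIa enzyme (0.64 ± 0.12 and 0.46), and its other 2 probes gave 0.06 and -0.33.

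Elsewhere in the list the S154D calls were few in each class. TRIP4, a subunit of the ASC-1 coactivator complex, rose by 0.69 ± 0.15. CTBP2, a corepressor, fell by 0.70 at one probe (SE 0.15) and gave -0.08 at the other, PIAS4, a SUMO ligase, fell by 0.85 (SE 0.18), and SMARCA4, the BRG1 ATPase of SWI/SNF, fell by 0.57 at one probe (SE 0.12) and gave 0.10 and -0.91 at its others. These 8 probes are the 4 higher and 4 lower with the smallest p, all with limma adjusted p between 0.0254 and 0.0279. The 4 that rose have 35.0% to 38.3% G and C and the 4 that fell 55% to 60%, and after correction for base composition 0 of 146 were called; the corrected changes were 0.39 for MED17, 0.35 for MED21, 0.27 for HDAC4, 0.41 for TRIP4, -0.48 for MED24, -0.41 for CTBP2, -0.52 for PIAS4 and -0.28 for SMARCA4. Of the acetyltransferases other than EP300 and CREBBP, 0 of 7 probes were called with S154D, and 3 (42.9%) had an unadjusted p under 0.05, against 30.9% of all tested probes. With S154A, PNRC1, a coactivator of nuclear receptors, gave -0.34 ± 0.14 (limma adjusted p = 0.881) and was not called.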

How the data were processed

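The data were 12 one-colour arrays, each a scanner file with deposited intensity values (Agilent's processed signal, background-subtracted by the scanner software) and the deposited flags for spots well above background. Feature Extraction was version 9.5.3.1 and the probe coordinates hg17 per the file headers; version 12 is named in the submitters' processing notes. The series value table held the same processed intensities as deposited by the authors (45015 of 45015 equal on each array). From these, log2 intensity minus the 75th percentile of each array was computed, outlier spots were left out and spots of a probe averaged, and probes were kept that were well above background (on at least 50% of their spots) on all 3 arrays of at least 1 group. limma 3.58.1 in R 4.3.3 fitted 1 mean per group over all 12 arrays, and p-values were adjusted over all 26898 probes by Benjamini-Hochberg, with a threshold of 0.05. On simulated data for CDCA with S154A (26752 probes), 60% of log2 changes of 1 and 83% of log2 changes of 2 were called. Arrays have no read depth; their number limits the precision.

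The named genes are every probe of the 9 coregulators, then, from the list of 85 other genes, up to 4 called higher and 4 called lower with the smallest p in each comparison (2 where none was called), and the 3 probes most like a called member. One gene that this rule names is not reported here. The other probes of those genes, the base composition of probes and the upstream and downstream probes were looked at after values were seen. Members and lists were chosen with earlier results of these data known. Alternatives changed the scaling, background correction, probe filter, samples in the fit, slide and replicate blocks, base composition (the loess trend of each array against G and C removed) and each array in turn. Replicate numbers are shared by the groups, but same-numbered arrays did not deviate together in every pair of groups, so they were not treated as pairs. Deviations of arrays on the same slide had a median correlation of 0.185 (12 pairs), against -0.085 on different slides (42 pairs). The main fit held no term for the slide. Slide 4 (S154A with CDCA, replicate 2, and S154D with DMSO, replicate 2) was scanned on a different day from the other slides.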

Additional observations from a re-analysis of the deposited data

How the results depend on the processing

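The count of coregulator probes called for CDCA with S154D was 1; it was 2 with quantile normalisation (PRMT1 and PPARGC1A) and 2 with only probes well above background on all 12 arrays (PRMT1 and CREBBP A_24_P322025). It was 0 with the normexp background correction, the unscaled series table, no filter on dim probes, the slide as a block, the base composition correction, the replicate block, the replicate block with that correction, only the arrays compared, slide 2 or slide 4 left out, and, chosen after seeing the data, the slide block with that correction. With 1 array left out it ran from 0 to 1. A count of 1 hides a change of probe with median scaling (PPARGC1A), without S154D with CDCA, replicate 1 (EP300 A_23_P40693) and without the 3 arrays low at EP300, also chosen after seeing the data (EP300 A_23_P40693). The other 4 comparisons gave 0 in every alternative run. With the replicate block the PRMT1 change was -0.40 (limma adjusted p = 0.0627); the correlation of same-numbered arrays ran from -0.38 to 0.53 over 18 pairs of arrays, and the block lowered the count over all probes from 3111 to 1014. Without an array of S154D in DMSO or CDCA, the count over all probes ran from 0 to 3587. Over 75 probe results and 29 alternatives, no called direction reversed, and 143 of 2120 values changed sign, none of them called. Median scaling moved the S154D calls over all probes from 1895 higher and 1216 lower to 2490 and 291, and the unscaled table shifted the median S154D change of all probes to 0.158. Signal over background limits NCOA2, and A_24_P303052 and A_24_P911017 gave no test.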

Other observations

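The EP300 probe A_24_P7887 was not alone in its pattern of 3 low arrays. The 3 named genes of the green monkey annotation whose profiles over the 12 arrays lay closest to it, chosen after its values were seen, were RIF1, a telomere and replication timing factor, at a root mean square difference of 0.121 log2, CEP290, a centrosomal protein, at 0.123, and SETD2, the histone H3 lysine methyltransferase of transcribed genes, at 0.134. Their probes hold 35.0%, 38.3% and 45.0% G and C, and their CDCA changes with S154D were -0.52, -0.77 and -1.07, beside -0.76 for EP300. The 3 genes were picked on these same 12 arrays, so the nearness of their changes to that of EP300 is not a separate result. S154D with CDCA, replicate 1, held 5.36% of all tested probes and 4 of the 15 coregulator probes more than 1 log2 below their own medians. S154A with DMSO, replicate 2, held 3.13% and 2 of 15. A_24_P7887, by which these arrays were picked, is in both counts. The rest are the 3 NCOA3 probes on the first array and the NCOA2 probe on the second. S154D with DMSO, replicate 2, also low at A_24_P7887, held 1.1% and 1 of 15. That 1 is A_24_P7887 itself, so the count follows from the way the array was picked. S154A with DMSO, replicate 3, which was not low there, held 0.874% and 2 of 15.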
